A study of Mus musculus with 18 samples.

Results

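Collagens are the proteins of the extracellular matrix that fold as triple helices, and each helix is built from 3 chains encoded by their own genes. In the kidney, type IV collagen forms the sheet of the basement membranes under tubules, capillaries and podocytes, while fibril-forming and beaded-filament collagens lie in the interstitium between them. Their genes were analysed here in right kidneys of male C57BL/6 mice. All genes whose symbol starts with Col, a number, the letter a and a number were taken, which gave 44 of the 32675 genes listed. Of these, 43 encode collagen chains. The remaining 1, Col4a3bp, encodes a ceramide transfer protein that was also described as binding the Col4a3 chain, and is itself no collagen.

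The 18 mice fell into 3 groups of 6, and the question was which renal transcripts change with chronic social defeat stress (CSDS) and with fluoxetine (FLX) given during the stress. All mice were obtained at 6 weeks of age and acclimatised before the stress. The Ctrl group was not defeated. The PBS group (StressPbs in the labels) was defeated by CD-1 mice for 10 min a day over 2 weeks and was injected with phosphate-buffered saline. The FLX group (StressFlx) was defeated likewise and received fluoxetine by daily injection, 10 mg per kg. No group received fluoxetine without stress, and no injection is stated for the Ctrl group, so that stress and injection cannot be told apart in a comparison with Ctrl. Poly(A) RNA of whole kidney was sequenced, so that fewer cells of a type and less RNA per cell cannot be told apart either. Levels are FPKM (fragments scaled for transcript length and library size), which can be compared between genes. The log2 change is the fitted log2 fold change, given with its standard error (SE), from edgeR's quasi-likelihood test on the counts, a two-sided test in 1 model over the 3 groups, with p values adjusted by the Benjamini-Hochberg method over all 20251 genes tested, and a gene is called at an adjusted p under 0.05.

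Total counts were between 72149987 and 78711121 in the Ctrl and PBS mice and between 48928823 and 79061296 in the FLX mice, with FLX replicates 3 to 6 at 48928823 to 52073640. The study left out 1 PBS mouse with high inflammatory genes, which its text does not name. PBS replicate 6 was taken to be that mouse, since it stood apart. Its level of Lcn2, a gene of injured tubules and neutrophils, was 49.2 FPKM, and the other 17 mice had between 0.474 and 6.37 FPKM. Its level of Slc34a1, the phosphate transporter of the proximal tubule, was 362 FPKM, and the other 17 mice had between 678 and 912 FPKM. Values are given first over the other 5 PBS mice and then over all 6. The tubule marker genes summed to between 1798.89 and 2394.45 FPKM in the 17 mice, and the adrenal marker genes to at most 2.04 FPKM.

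Type IV chains led the collagen transcripts of the kidney. In the Ctrl mice the 6 type IV genes made up 57.2% of the summed FPKM of the 43 chains, the 2 multiplexins (basement membrane collagens with sugar chains) 15.5%, the 11 fibrillar chains 14.4%, the 8 fibril-associated chains (FACIT) 6.03% and the 6 chains of the beaded-filament type VI 5.26%. Col4a1 was at 17.2 ± 2.26 FPKM (SD, n = 6) in Ctrl mice, Col4a3 at 16.4 ± 2.85, Col18a1 at 15.8 ± 1.81, Col4a4 at 14.7 ± 2.90 and Col4a2 at 13.5 ± 2.99. These 5 chains differed from their neighbours in this order by less than their spread. A step down came Col4a5 at 4.81 ± 0.954 FPKM (SD, n = 6), Col14a1 at 4.22 ± 0.819, Col3a1 at 3.95 ± 1.24, Col27a1 at 3.64 ± 0.508, Col6a1 at 3.45 ± 0.610 and Col1a2 at 3.05 ± 0.410, again with overlapping spreads. Col4a3bp lay in the same range at 5.00 ± 1.15 FPKM (SD, n = 6).

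**Figure D1:**
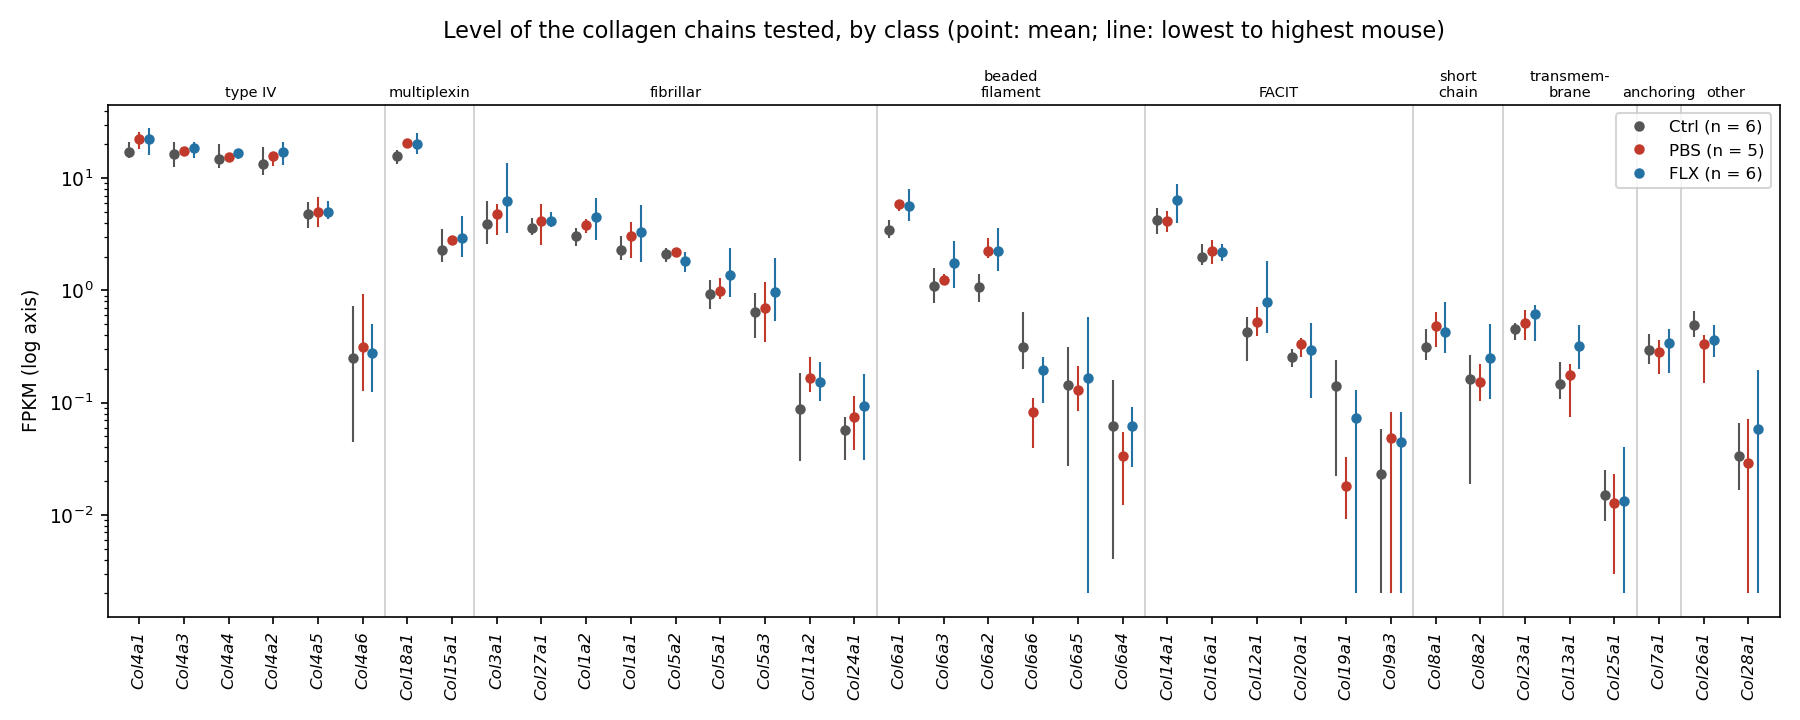
FPKM of the 37 collagen chains tested on a log axis, grouped by class, with the group mean as a point and the lowest to the highest mouse as a line (6 Ctrl, 5 PBS and 6 FLX mice; lines reach down to 0.002 where a mouse is listed at 0). Col4a1, Col4a3, Col4a4, Col4a2 and Col18a1 stand highest in each group, and Col6a2 shows PBS and FLX lines above the Ctrl line.

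The counts of 38 of the 44 genes were high enough to be tested, 37 chains and Col4a3bp. Col2a1, Col9a2, Col10a1, Col11a1, Col17a1 and Col22a1 were not, with mean counts from 0.353 to 4 per mouse over the 17 mice. Most of these are known from cartilage or skin, and each was listed at 0 in at least 10 of the 18 mice. Col9a1 was not analysed here.

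The sequences just before the start of the type VI genes are shown because 2 of these genes rose and 1 fell below, and the stretch between Col4a4 and Col4a3 because this pair starts back to back. They are taken from RefSeq promoters of GRCm38, which held 35 of the 44 genes, and run up to the outermost start given by the deposited table or by RefSeq. All are written 5′ to 3′ on the minus strand, the strand of the Col6 genes and of Col4a4. Capitals mark a match to the GC box GGGCGG on either strand. The other motifs searched on both strands, the CCAAT box (CCAAT), the TATA box (TATAAA) and the AP-1 site (TGANTCA), had no match in any of the 4 windows.
Col6a2 (chr10:76623631-76623880): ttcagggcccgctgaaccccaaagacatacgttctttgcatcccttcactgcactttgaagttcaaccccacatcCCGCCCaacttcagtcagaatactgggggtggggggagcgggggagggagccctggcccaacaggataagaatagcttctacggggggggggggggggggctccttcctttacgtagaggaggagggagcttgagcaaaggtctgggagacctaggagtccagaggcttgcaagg
Col6a1 (chr10:76726169-76726294): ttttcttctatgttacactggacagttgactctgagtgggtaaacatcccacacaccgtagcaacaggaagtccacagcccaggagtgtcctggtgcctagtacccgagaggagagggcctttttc
Col6a6 (chr9:105828161-105828335): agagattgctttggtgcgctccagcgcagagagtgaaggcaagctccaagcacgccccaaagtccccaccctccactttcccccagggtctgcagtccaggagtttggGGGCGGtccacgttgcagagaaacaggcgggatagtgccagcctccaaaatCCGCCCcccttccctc
Col4a4-Col4a3 gap (chr1:82586850-82586920): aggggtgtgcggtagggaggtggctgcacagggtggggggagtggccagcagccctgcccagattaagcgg

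The GC box was found 1 time in the 250 bases before Col6a2 and 2 times in the 175 bases before Col6a6, and not in the 126 bases before Col6a1 or in the 71 bases between Col4a4 and Col4a3. Over all 32851 promoters, in the order Col6a2, Col6a6, Col6a1 and gap, 32.7%, 20.2%, 13.5% and 20.7% hold it in the stretch placed likewise from the RefSeq start. For Col6a1 and Col6a6 the deposited start lies further out than the RefSeq start. The bases between these 2 starts were not searched. For the CCAAT box these shares are 33.8%, 24.1%, 16.9% and 13.3%, for the TATA box 12.4%, 8.22%, 6.26% and 4.41%, and for the AP-1 site 6.75%, 4.78%, 3.24% and 1.86%. The GC content was 59.2% before Col6a2, 51.6% before Col6a1, 61.7% before Col6a6 and 69% in the gap.

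In PBS versus Ctrl, 3 chains rose and 2 fell. The rises were in Col6a1 and Col6a2, which encode chains of type VI collagen, and in Col18a1, which encodes the type XVIII chain of basement membranes and the source of endostatin. The falls were in Col6a6, a further type VI chain, and in Col19a1, a rare chain of the FACIT class. The 3 rises among 38 members compare with 2.14% of all genes tested called higher, and the 2 falls with 1.67% called lower. Over all 37 chains the median log2 change was 0.21 with 27 above 0, and over all genes tested it was -0.01.

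Col6a1 (ENSMUSG00000001119, GRCm38 chromosome 10, 76708792 to 76726168, minus strand) was at 2.92 FPKM in the lowest, 3.21 in the median and 4.24 in the highest Ctrl mouse. The 5 PBS mice had 5.17, 5.14, 6.38, 6.42 and 6.25 FPKM of Col6a1, all above the highest Ctrl mouse. Col6a1 averaged 3.45 ± 0.610 FPKM in Ctrl (SD, n = 6) and 5.87 ± 0.657 FPKM in PBS mice (SD, n = 5), and the log2 change was 0.78 (SE 0.16, adjusted p = 0.0103). PBS replicate 6 had 9.58 FPKM, and with all 6 PBS mice the log2 change was 0.91 (adjusted p = 0.00684).

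Col6a2 (ENSMUSG00000020241, chromosome 10, 76595762 to 76623630, minus strand) lies next to Col6a1 in the same orientation, with 85161 bases between them, and its chain joins that of Col6a1 in the type VI trimer. The Ctrl mice had 0.785 (lowest), 1.02 (median) and 1.41 (highest) FPKM of Col6a2. The PBS mice had 1.94, 2.02, 2.96, 2.20 and 2.23 FPKM, again with no overlap. Its log2 change was 1.09 (SE 0.20, adjusted p = 0.00471), and 1.25 (adjusted p = 0.00342) with PBS replicate 6, which had 4.08 FPKM. Both genes were called under every alternative tried in this comparison.

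Col18a1 (ENSMUSG00000001435, chromosome 10, 77052178 to 77166548, minus strand) started from a higher level, with 13.3 (lowest), 16.0 (median) and 18.02 (highest) FPKM in the Ctrl mice. The PBS mice had 21.1, 21.9, 18.7, 20.2 and 20.2 FPKM of Col18a1, and the lowest of them lay just above the highest Ctrl mouse. The log2 change was 0.38 (SE 0.09, adjusted p = 0.0251), and 0.61 (adjusted p = 0.0378) with PBS replicate 6 at 43.8 FPKM. It was no longer called when any of Ctrl replicates 1 and 2 and PBS replicates 1, 2 and 4 was left out, at an adjusted p of up to 0.0749. The same held under limma without a filter and with the replicate number as a block (adjusted p up to 0.0672).

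Col6a6 (ENSMUSG00000043719, chromosome 9, 105687809 to 105828160, minus strand) went the other way. The Ctrl mice had 0.201 (lowest), 0.254 (median) and 0.645 (highest) FPKM, and the PBS mice had 0.110, 0.0865, 0.0810, 0.0396 and 0.09997 FPKM of Col6a6, all below the lowest Ctrl mouse. Behind these levels were 159 to 532 counts per Ctrl mouse and 34 to 86 per PBS mouse. The log2 change was -1.89 (SE 0.33, adjusted p = 0.00350), and -2.07 (adjusted p = 0.00400) with PBS replicate 6, which at 0.0237 FPKM was the lowest of the 18 mice. Col6a6 was called under every alternative tried in this comparison, including without Ctrl replicate 3, its highest mouse.

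Col19a1 (ENSMUSG00000026141, chromosome 1, 24261890 to 24587472, minus strand) was measured on few counts. The Ctrl mice had 84, 109, 149, 56, 111 and 14 counts, and the PBS mice had 13, 7, 20, 6 and 11 counts of Col19a1. The Ctrl mouse with 14 counts lay inside the PBS range, while the other 5 lay above it. The log2 change was -2.89 (SE 0.77, adjusted p = 0.0411), and -3.15 (adjusted p = 0.0334) with PBS replicate 6, in which Col19a1 is listed at 0. It was no longer called when any of Ctrl replicates 1, 2, 4 and 5, PBS replicates 1, 2, 4 and 5 and FLX replicate 6 was left out, at an adjusted p of up to 0.106. The same held without the filter on low counts, under limma without a filter and with the replicate number as a block (adjusted p up to 0.0876).

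**Figure D2:**
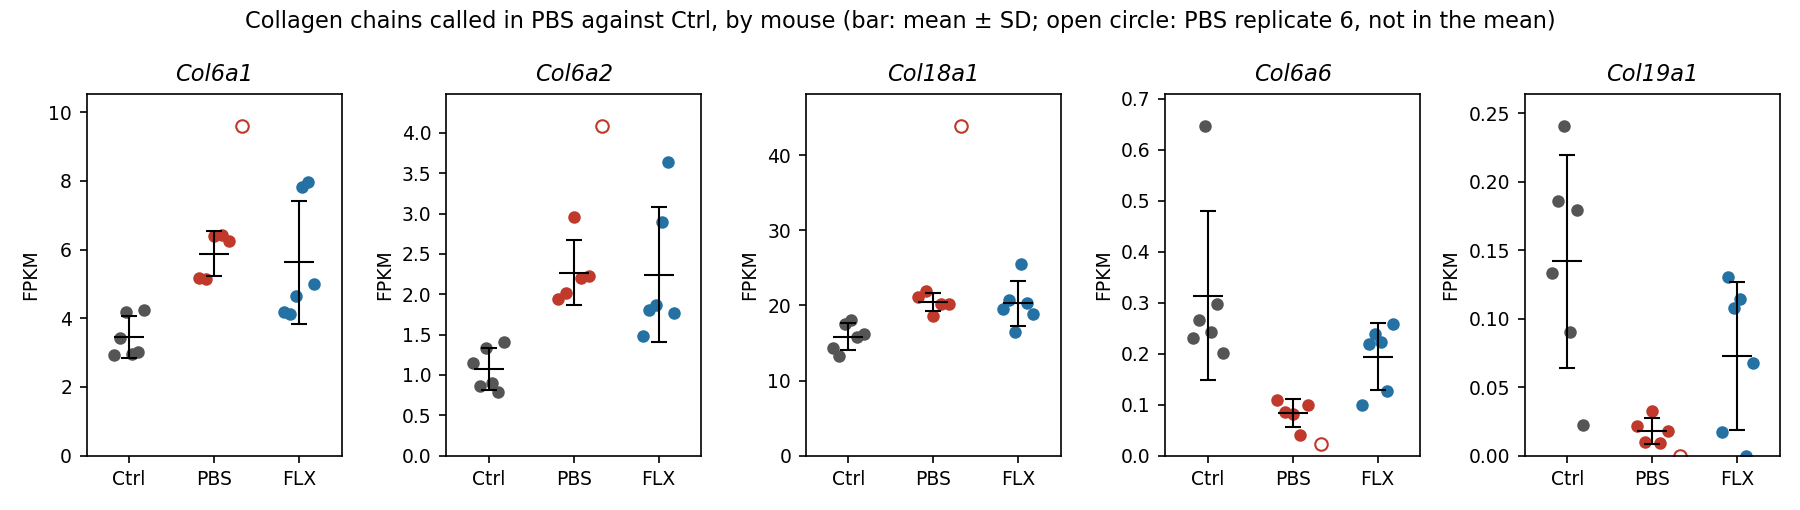
FPKM by mouse of the 5 chains called in PBS versus Ctrl, one panel per gene with its own axis from 0, points for mice, bars for mean ± SD (6 Ctrl, 5 PBS and 6 FLX mice) and an open circle for PBS replicate 6, which is not in the mean. PBS points lie above all Ctrl points for Col6a1, Col6a2 and Col18a1 and below them for Col6a6, and 1 Ctrl mouse overlaps PBS for Col19a1.

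PBS and Ctrl mice did not overlap in FPKM for 4 of the 38 genes tested, Col6a1, Col6a2, Col18a1 and Col6a6, and the same held for 3.52% of all genes tested. With all 6 PBS mice the same 5 chains were called, against 4.28% of all genes. Type VI thus held 2 rises and 1 fall, and its other members were not called. Col6a3, whose large chain completes the classical type VI trimer, was at 1.102 ± 0.291 FPKM (SD, n = 6) in Ctrl and 1.25 ± 0.112 (SD, n = 5) in PBS (log2 change 0.19, SE 0.21, adjusted p = 0.696). Col6a4 and Col6a5, which lie near Col6a6 on chromosome 9, had log2 changes of -0.88 (adjusted p = 0.461) and -0.13 (adjusted p = 0.958).

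None of the 6 type IV chains was called with edgeR, and DESeq2 called 1, Col4a1 (log2 change 0.39, adjusted p = 0.0220), among 6 members and 7.03% of all genes. Col4a1, which with Col4a2 forms the trimer found in all basement membranes, came closest in edgeR, with 15.2 (lowest), 16.5 (median) and 21.0 (highest) FPKM in Ctrl mice and 25.6, 18.1, 23.1, 22.4 and 22.1 FPKM in PBS mice. Its log2 change was 0.39 (SE 0.11, adjusted p = 0.0710), and all PBS mice but 1 lay above every Ctrl mouse. Without Ctrl replicate 3, PBS replicate 2, FLX replicate 3 or FLX replicate 5 its adjusted p was under the threshold, at 0.0287 in the lowest case. In these fits 8.27%, 3.36%, 3.75% and 4.26% of all genes were called, against 3.81% in the main fit. Col4a2, which starts within the first bases of Col4a1 on the other strand with an overlap of 22 bases, had a log2 change of 0.23 (SE 0.13, adjusted p = 0.370).

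The chains of the glomerular basement membrane, the trimer whose mutations cause Alport syndrome, were close between the groups. Col4a3 had a log2 change of 0.09 (SE 0.10, adjusted p = 0.676), Col4a4 of 0.07 (SE 0.09, adjusted p = 0.752) and Col4a5 of 0.05 (SE 0.14, adjusted p = 0.902) in PBS versus Ctrl. Col4a6, which starts 1308 bases from Col4a5 on the X chromosome in the opposite direction, was low and uneven, at 0.0444 to 0.732 FPKM in Ctrl mice and 0.127 to 0.936 FPKM in the 5 PBS mice (log2 change 0.31, SE 0.63, adjusted p = 0.850).

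The 9 fibrillar chains tested all had a log2 change above 0 in PBS versus Ctrl, with a median of 0.28, but none was called. Col1a1 and Col1a2, the chains of type I collagen, were at 0.42 (SE 0.28, adjusted p = 0.474) and 0.35 (SE 0.17, adjusted p = 0.292), and Col3a1, the type III chain, at 0.28 (SE 0.32, adjusted p = 0.702). Col8a1, a short chain known from vessel walls, was among the 10 smallest p values with a log2 change of 0.65 (SE 0.25, adjusted p = 0.175).

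In FLX versus PBS, no chain was called with edgeR, against 0.726% of all genes tested, and 5 of the 38 genes had an unadjusted p under 0.05 (11.1% of all genes). DESeq2 called 2, Col6a6 and Col14a1, and 2.46% of all genes. FLX and PBS mice overlapped in FPKM for each of the 38 genes, while 2.92% of all genes did not overlap. The median log2 change of the 37 chains was 0.03.

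The smallest p in FLX versus PBS belonged to Col6a6, the type VI chain that fell in PBS mice. The FLX mice had 0.0989 (lowest), 0.222 (median) and 0.257 (highest) FPKM, and 5 of the 6 lay above the highest of the 5 PBS mice, 1 of them at 0.127 and the other 4 from 0.220 up. The log2 change was 1.12 (SE 0.33, adjusted p = 0.136), and 1.31 (adjusted p = 0.103) with all 6 PBS mice. Col19a1 had a log2 change of 1.86 (SE 0.75, adjusted p = 0.326), with 12, 78, 43, 47, 0 and 28 counts in the FLX mice.

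Col14a1, a chain that sits on the surface of collagen fibrils, was at 3.98 (lowest), 6.22 (median) and 8.96 (highest) FPKM in FLX mice and at 4.38, 3.32, 5.10, 3.64 and 4.50 FPKM in PBS mice. Its log2 change was 0.52 (SE 0.16, adjusted p = 0.154). Col5a2, a type V chain that helps to start fibrils, had -0.35 (SE 0.10, adjusted p = 0.146), and Col13a1, a transmembrane collagen, 0.78 (SE 0.31, adjusted p = 0.313). The direction of Col13a1 turned with PBS replicate 6 in the fit, to -1.70 (adjusted p = 0.390), since this mouse had 5.31 FPKM. For Col6a1 and Col6a2 the log2 changes were -0.17 (SE 0.16, adjusted p = 0.790) and -0.12 (SE 0.20, adjusted p = 0.900), and for Col18a1 -0.11 (SE 0.09, adjusted p = 0.747).

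In FLX versus Ctrl, 2 of the 38 genes rose, Col6a1 and Col6a2, against 2.08% of all genes called higher, and none fell. This comparison and PBS versus Ctrl share the Ctrl mice. Over all 37 chains the median log2 change in FLX versus Ctrl was 0.28 with 30 above 0, and over all genes tested it was -0.01. An unadjusted p under 0.05 was found for 13 of the 38 genes and for 20.4% of all genes. Col6a2 was at 1.49 (lowest), 1.83 (median) and 3.63 (highest) FPKM in FLX mice, all above the highest Ctrl mouse at 1.41 FPKM. Its log2 change was 0.97 (SE 0.19, adjusted p = 0.0122), and 0.97 (adjusted p = 0.0295) with all 6 PBS mice in the model. It was the only 1 of the 38 genes whose FLX and Ctrl mice did not overlap, against 3.4% of all genes.

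Col6a1 was at 4.13 (lowest), 4.83 (median) and 7.97 (highest) FPKM in FLX mice, and the 2 lowest lay below the highest Ctrl mouse. Its log2 change was 0.61 (SE 0.15, adjusted p = 0.0360). The call was lost with all 6 PBS mice in the model (adjusted p = 0.0726) and when any of Ctrl replicates 1, 2, 4 and 5 or of FLX replicates 4 and 5 was left out (adjusted p up to 0.0842). FLX replicates 4 and 5 were the 2 highest for both genes, at 7.82 and 7.97 FPKM of Col6a1 and at 2.90 and 3.63 FPKM of Col6a2.

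The next smallest p values belonged to Col13a1 (log2 change 1.02, SE 0.29, adjusted p = 0.0599), Col14a1 (0.52, SE 0.15, adjusted p = 0.0634) and Col18a1 (0.27, SE 0.09, adjusted p = 0.0906). All 3 passed the threshold without Ctrl replicate 3 or without FLX replicate 3. In these fits 15.4% and 4.4% of all genes were called, against 3.67% in the main fit. DESeq2 and the 3 filtered limma fits also called all 3, with 8.12% and 6.37% to 6.6% of all genes called. Among the 17 mice, FLX replicate 5 or 4 had the highest FPKM for 21 of the 38 genes. Replicate 5 was highest for 14 genes, where 10.2% of all genes have it highest, and replicate 4 for 7, where 13% do. They had 13.8 and 8.88 FPKM of Col3a1, and the other 4 FLX mice had 3.24 to 4.52. Their totals, 50801497 and 51089648 counts, were like those of FLX replicates 3 and 6. Of the fat cell gene Cfd, replicate 5 had 858 FPKM and replicate 4 had 22.9, where the other FLX mice had 15.9 to 138. Of Lcn2, replicate 4 had 6.37 FPKM and replicate 5 had 0.865, where the other FLX mice had 1.04 to 1.67. The part of fat or injury in the collagen levels of these 2 mice was not tested. With FLX replicates 1 and 2 alone, whose totals were like those of the other groups, no member and 4 of all 21863 genes (0.0183%) were called in FLX versus Ctrl, and Col6a2 had a log2 change of 0.59 (adjusted p = 0.343). That fit held 2 FLX mice in place of 6 and so had less power. The smaller group and the depth cannot be told apart in it.

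**Figure D3:**
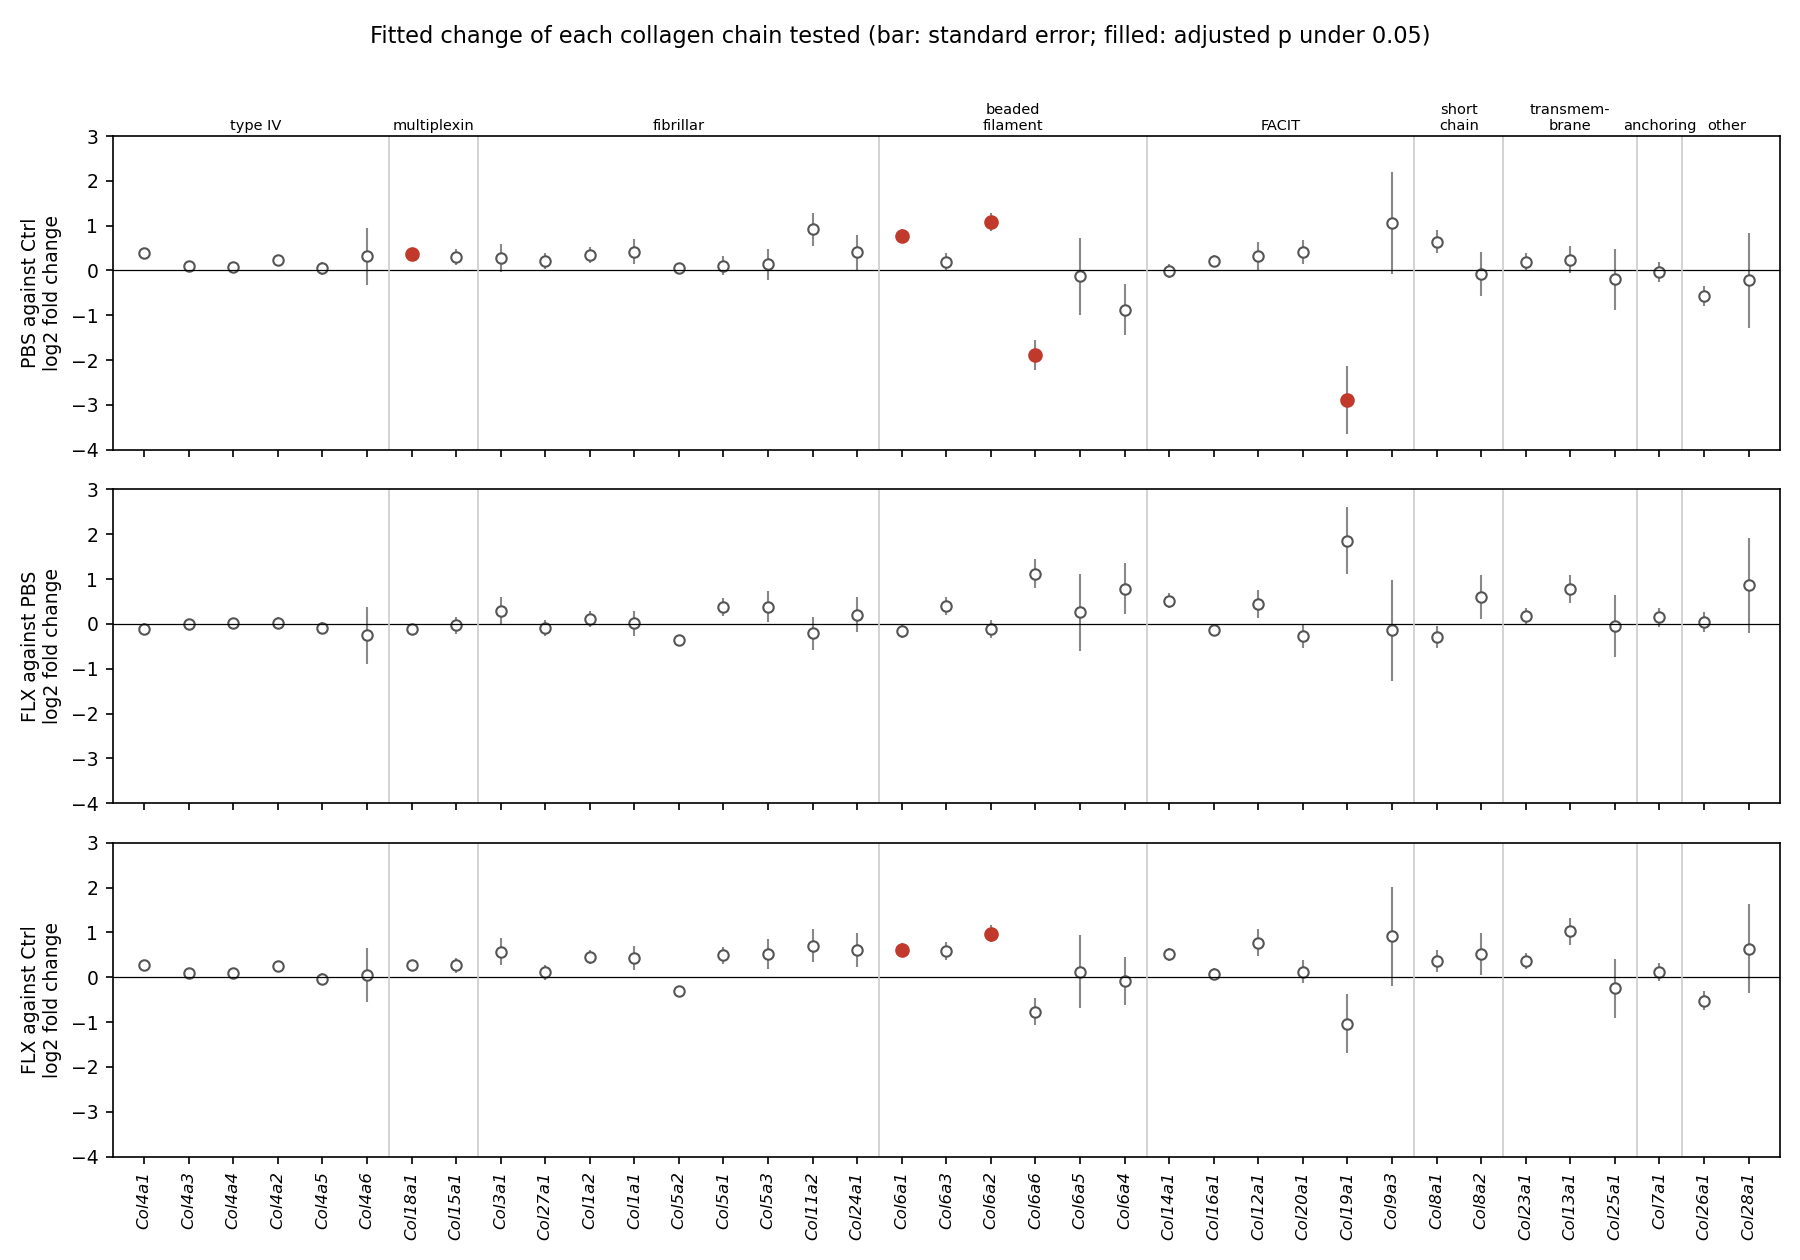
Log2 fold change of the 37 chains tested with standard error bars, grouped by class, for PBS versus Ctrl (top), FLX versus PBS (middle) and FLX versus Ctrl (bottom), with filled points for an adjusted p under 0.05. Col6a1 and Col6a2 are filled above 0 at the top and at the bottom, Col18a1 above 0 and Col6a6 and Col19a1 below 0 only at the top, and no point is filled in the middle.

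Chains that meet in 1 trimer were also compared as ratios of FPKM within each mouse, with no test. Col4a3 and Col4a4, which share a start region of 71 bases, were held at 1.03 to 1.21 in the 17 mice, and PBS replicate 6 lay below them at 0.832. Col4a1 over Col4a2 was between 1.102 and 1.51. Col6a1 over Col6a2 was between 2.55 and 3.93 in Ctrl mice, 2.16 and 2.92 in PBS mice and 2.19 and 2.83 in FLX mice.

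Col1a1 over Col1a2 was between 0.630 and 0.884 in Ctrl, 0.602 and 0.945 in the 5 PBS and 0.491 and 0.879 in FLX mice. Col4a3 over Col4a5 was between 2.75 and 4.40 in Ctrl, 2.57 and 4.67 in the 5 PBS and 3.28 and 4.40 in FLX mice. The groups lay further apart in Col6a1 over Col6a3 and in Col5a1 over Col5a2. Col6a1 over Col6a3 was between 2.63 and 3.88 in Ctrl mice, between 3.93 and 5.67 in the 5 PBS mice and between 2.68 and 4.39 in FLX mice, with 6.97 in PBS replicate 6. Col5a1 over Col5a2, the type V pair, was between 0.321 and 0.512 in Ctrl mice, 0.380 and 0.553 in the 5 PBS mice and 0.593 and 1.09 in FLX mice. PBS replicate 6 reached 1.02 in this ratio.

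**Figure D4:**
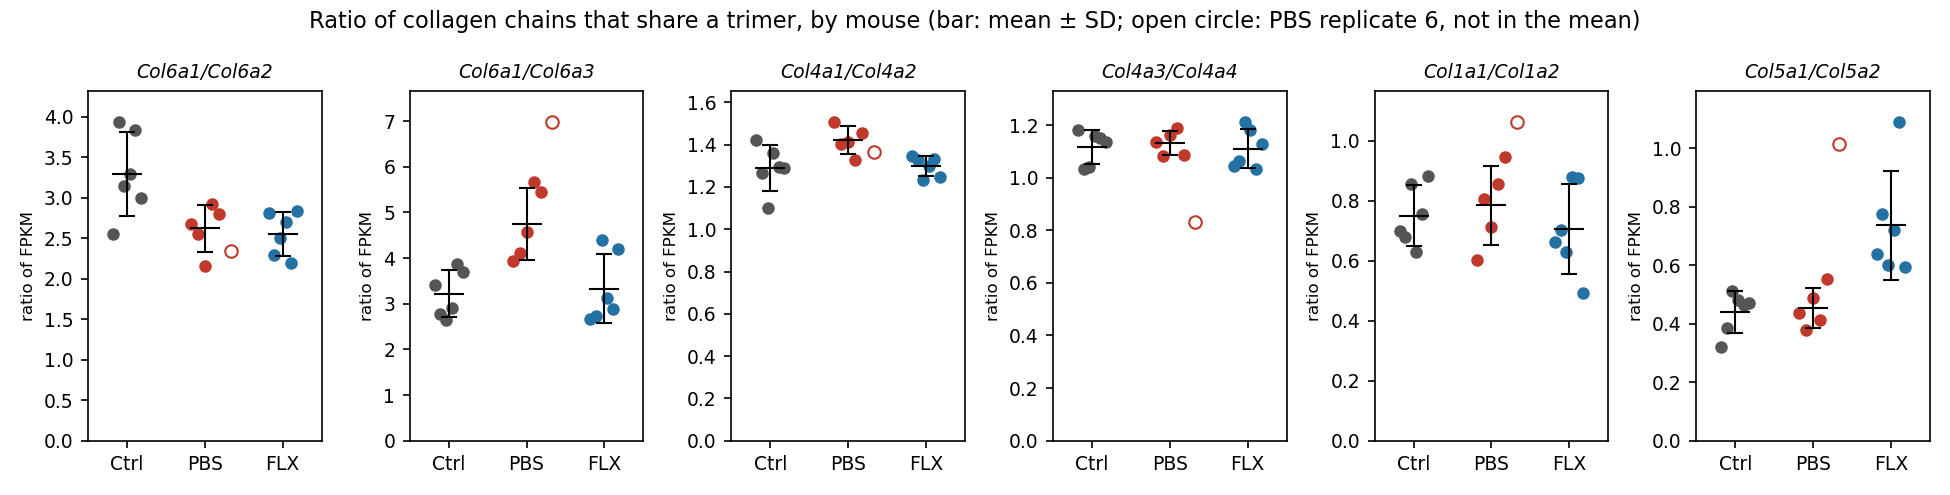
Ratio of FPKM between 2 chains of a trimer by mouse, one panel per pair with axes from 0, bars for mean ± SD and an open circle for PBS replicate 6, which is not in the mean. Col4a3/Col4a4 is level across the groups, Col6a1/Col6a3 is higher in PBS mice than in Ctrl mice and Col5a1/Col5a2 is higher in FLX mice than in Ctrl and PBS mice.

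PBS replicate 6 was the highest of the 18 mice for 10 of the 38 genes, where 15.3% of all genes tested have it highest, and it exceeded the median of the other 17 mice by over 2 times for 13 of 38, against 9.81% of all genes. Col13a1 stood at 5.31 FPKM in this mouse and at 0.0748 to 0.492 FPKM in the other 17, and Col8a1 at 4.61 FPKM and at 0.240 to 0.782 FPKM. Col4a1 was at 81.6 FPKM and Col4a2 at 59.7 FPKM, where the other mice reached 27.9 and 20.9 FPKM at most. Col4a3 was instead the lowest of the 18 mice at 11.95 FPKM, and Col4a4 lay inside the range of the others at 14.4 FPKM.

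Col1a1, at 8.35 FPKM, and Col1a2, at 7.87 FPKM, were also highest in this mouse, and Col3a1, at 8.82 FPKM, was below FLX replicates 4 and 5. The fibroblast and mural cell genes summed to 161 FPKM in it, and the neutrophil and injury genes to 114 FPKM, against at most 137 and 25.1 FPKM in the other 17 mice. The part of these genes in the levels of the chains was not tested.

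**Figure D5:**
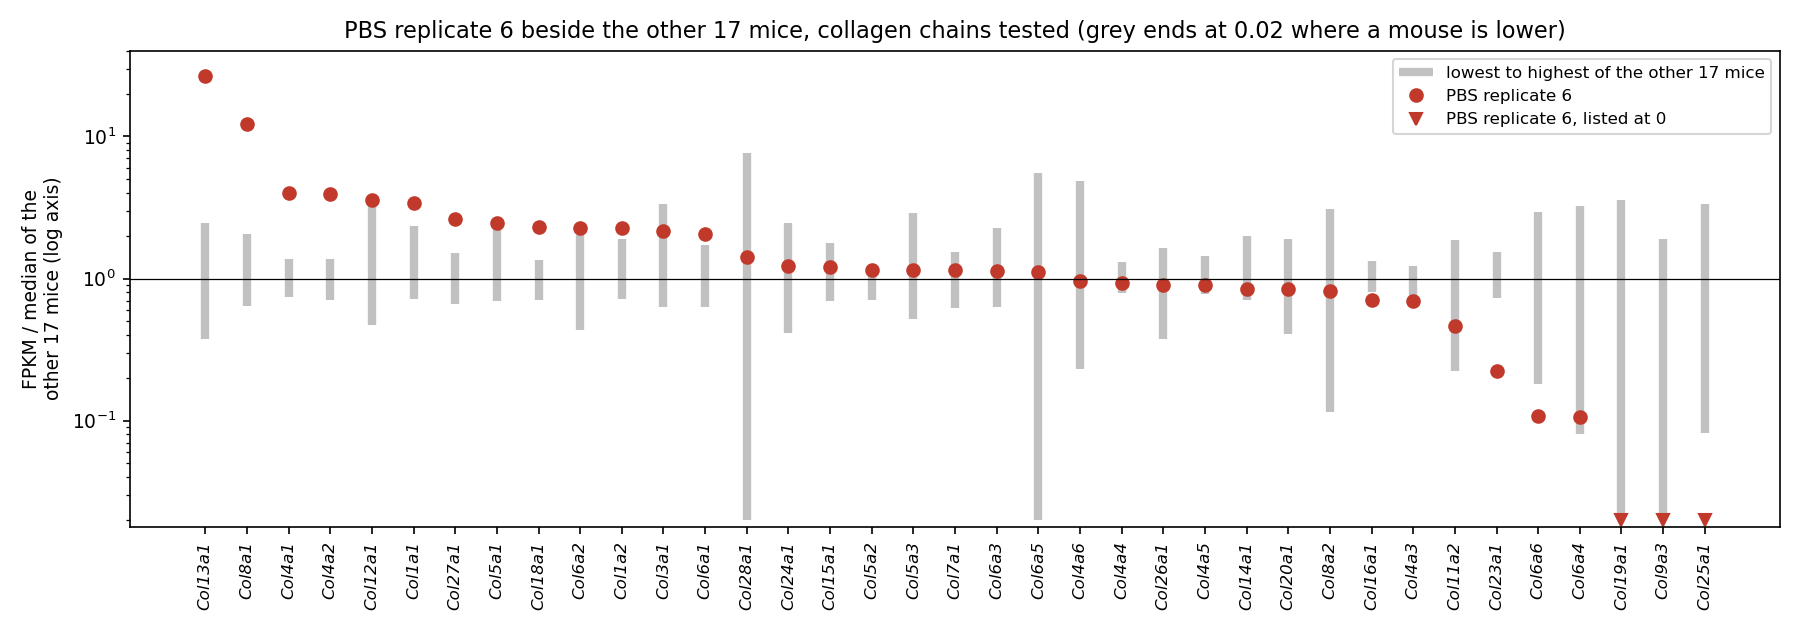
FPKM of each chain tested in PBS replicate 6 (red) over the median of the other 17 mice on a log axis, with the lowest to the highest of those 17 in grey, ends below 0.02 being drawn at 0.02. Col13a1, Col8a1, Col4a1 and Col4a2 lie furthest above the grey range, and Col16a1, Col4a3, Col23a1, Col6a6 and Col25a1 lie below it.

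Genes that act on collagen were read beside the chains. Of all genes tested in PBS versus Ctrl, 2.14% were called higher and 1.67% lower. Of the 17 genes tested for folding and secretion of the chain, 1 rose in that comparison. It was P4ha1, a subunit of the prolyl hydroxylase that stabilises the helix, with 8.87 ± 1.3295 FPKM in Ctrl (SD, n = 6), 13.8 ± 2.10 FPKM in PBS mice (SD, n = 5) and a log2 change of 0.64 (adjusted p = 0.0167, and 0.110 with all 6 PBS mice). Of 12 trimming and cross-linking genes 1 rose, Pcolce, an enhancer of the protease that removes the end of procollagen, with a log2 change of 0.45 (SE 0.09, adjusted p = 0.00946). Of 12 genes of collagen breakdown 1 rose, the protease Mmp3, from 0.0469 ± 0.0286 to 0.302 ± 0.140 FPKM (log2 change 2.61, adjusted p = 0.0226).

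None of the 8 collagen receptors, the 15 basement membrane partners such as laminins and nidogens, or the 11 interstitial partners was called in PBS versus Ctrl. Among the smallest p values in these lists were those of the integrin subunits Itga10 (log2 change 0.70, adjusted p = 0.0949) and Itgb1 (0.16, adjusted p = 0.171), of the laminin chain Lama1 (-0.50, adjusted p = 0.105), and of Fn1, encoding fibronectin (0.48, adjusted p = 0.106), and Postn, encoding periostin (1.3303, adjusted p = 0.220). The 8 fibrogenic signals held 1 rise, Tgfb3 (log2 change 1.15, adjusted p = 0.0329), where 2.14% of all genes were called higher. They also held 2 falls, Tgfb2 (-1.27, adjusted p = 0.0409) and the platelet growth factor chain Pdgfb (-0.50, adjusted p = 0.00404), where 1.67% were called lower. Pdgfb fell from 4.59 ± 0.312 to 3.23 ± 0.279 FPKM with no overlap between the groups. Tgfb2 was low, at 0.175 ± 0.0762 FPKM in Ctrl (SD, n = 6) and 0.0712 ± 0.0142 FPKM in PBS mice (SD, n = 5). With all 6 PBS mice the adjusted p of Tgfb2 was 0.122.

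In FLX versus PBS, Ccn2, a matricellular growth factor gene, was at 14.7 ± 4.30 FPKM in PBS (SD, n = 5) and at 36.9 ± 5.81 FPKM in FLX mice (SD, n = 6), and rose by 1.25 on the log2 scale (adjusted p = 0.00131), and Pdgfb rose by 0.47 (adjusted p = 0.0191). With PBS replicate 6, which had 41.4 FPKM of Ccn2, the call of Ccn2 was lost (0.88, adjusted p = 0.109). P3h2, a prolyl hydroxylase that acts on type IV chains, fell from 13.4 ± 2.14 to 8.49 ± 0.969 FPKM (log2 change -0.75, adjusted p = 0.0373, and 0.0509 with all 6 PBS mice). With 0.726% of all genes tested called in this comparison, the other lists held no call. Their smallest p values belonged to the laminin chains Lamc3 (log2 change 0.38, adjusted p = 0.0881) and Lama2 (0.46, adjusted p = 0.242), the proteases Mmp14 (0.46, adjusted p = 0.308) and Mmp8 (-3.00, adjusted p = 0.313), the receptors Itga1 (-0.19, adjusted p = 0.653) and Ddr1 (-0.11, adjusted p = 0.760), Pcolce (-0.32, adjusted p = 0.117) and the cross-linking enzyme Loxl1 (0.25, adjusted p = 0.475), and Fn1 (0.29, adjusted p = 0.544) and Tnc, encoding tenascin C (0.75, adjusted p = 0.574).

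In FLX versus Ctrl, 1 of the 17 folding genes, 1 of the 12 trimming genes, 2 of the 12 breakdown genes, 2 of the 8 receptors, 1 of the 11 interstitial partners and 2 of the 8 signals rose, against 2.08% of all genes called higher. None of these genes fell, against 322 of all 20251 genes called lower. Those that rose were Mmp3 (log2 change 3.49, adjusted p = 0.00596), its class's inhibitor Timp2 (0.56, adjusted p = 0.0276), the procollagen protease Adamts2 (0.85, adjusted p = 0.0421), the hydroxylase subunit P4ha2 (0.42, adjusted p = 0.0332), the receptors Ddr2 (0.64, adjusted p = 0.0408) and Itga10 (0.82, adjusted p = 0.0421), Fn1 (0.78, adjusted p = 0.0126), Ccn2 (0.83, adjusted p = 0.00664) and Tgfb3 (1.06, adjusted p = 0.0434). None of the 15 basement membrane partners was called, and the smallest p values were those of Lamc3 (0.25, adjusted p = 0.149) and Nid2, encoding a nidogen (0.30, adjusted p = 0.155). With all 6 PBS mice in the model, Mmp3 and P4ha2 were still called (adjusted p = 0.0105 and 0.0458), and Timp2 (0.0843), Adamts2 (0.157), Ddr2 (0.0546), Itga10 (0.0551), Fn1 (0.0599), Ccn2 (0.0843) and Tgfb3 (0.0600) were not.

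Leaving out any 1 of the 17 mice kept the calls of Pcolce and Pdgfb in PBS versus Ctrl, of Ccn2 and Pdgfb in FLX versus PBS and of Mmp3, Ccn2 and Fn1 in FLX versus Ctrl. The call of Pdgfb in FLX versus PBS was lost in the pairwise fit, with the replicate number as a block and with FLX replicates 1 and 2 only (adjusted p up to 0.260), and those of Ccn2 in both comparisons, of Fn1 and of Mmp3 in FLX versus Ctrl were lost with FLX replicates 1 and 2 only. In PBS versus Ctrl, Mmp3 was not called by limma with a pseudocount of 1 or without a filter. Pcolce and Pdgfb in PBS versus Ctrl were called under every alternative tried. In PBS versus Ctrl, P4ha1 was lost without PBS replicate 4 (adjusted p = 0.0532) and Mmp3 without Ctrl replicate 2 or PBS replicate 4 (adjusted p up to 0.0523). Timp2 was lost without Ctrl replicate 1, 2 or 5 or FLX replicate 5 (adjusted p up to 0.0677). It was also lost with the replicate number as a block and with FLX replicates 1 and 2 only (adjusted p up to 0.431). The calls of P3h2, P4ha2, Adamts2, Ddr2, Itga10, Tgfb2 and, in both comparisons with Ctrl, Tgfb3 were each lost on leaving out any of 7 to 12 of the 17 mice, with adjusted p up to 0.130, 0.0811, 0.1004, 0.101, 0.102, 0.102 and 0.126. These calls were also lost without the filter on low counts and with the replicate number as a block. No limma fit called P3h2, Adamts2, Tgfb2 or, in PBS versus Ctrl, Tgfb3. Over the alternatives other than leaving out 1 mouse, the adjusted p reached 0.781 for P3h2, 0.433 for Adamts2, 0.193 for Tgfb2, 0.113 for P4ha2, 0.528 for Ddr2 and 0.420 for Itga10. For Tgfb3 it reached 0.116 in PBS versus Ctrl and 0.286 in FLX versus Ctrl.

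Markers of other cells were read beside the chains. Of all genes tested, 3.81% were called in PBS versus Ctrl, 0.726% in FLX versus PBS and 3.67% in FLX versus Ctrl. The 10 fibroblast and mural cell genes summed to between 49.7 and 71.1 FPKM in Ctrl mice, 66.1 and 108 in PBS mice and 66.0 and 137 in FLX mice, and 1 of the 10, Acta2 (smooth muscle actin), was called, with log2 changes of 0.92 in PBS versus Ctrl (adjusted p = 0.0409) and 1.12 in FLX versus Ctrl (adjusted p = 0.0156). The 6 podocyte genes summed to between 41.0 and 57.3 FPKM in Ctrl, 55.5 and 65.4 in PBS and 48.0 and 78.6 in FLX mice, with no call. The 6 endothelial genes summed to between 27.2 and 39.9, 24.2 and 45.7, and 36.2 and 53.8 FPKM, with Tek and Tie1 called in FLX versus Ctrl. The 7 fat genes ranged from 13.9 to 243 FPKM in Ctrl, 42.0 to 1484.15 in PBS and 43.8 to 1405.27 in FLX mice, and 1 of them, Elovl3, was called in PBS versus Ctrl. The 4 neutrophil and injury genes summed to between 2.18 and 4.92 FPKM in Ctrl, 8.58 and 25.1 in the 5 PBS and 1.96 and 12.3 in FLX mice, and 2 of the 4, S100a8 and S100a9, were called in PBS versus Ctrl (log2 change 2.96 and 2.66, adjusted p = 0.0205 and 0.0285). S100a8 was also called in FLX versus PBS (-3.14, adjusted p = 0.0402). The 3 macrophage genes summed to between 10.7 and 13.3, 9.32 and 12.1, and 11.6 and 16.5 FPKM, with no call. No marker gene was at 0 in all mice of a group, apart from 1 adrenal gene in the Ctrl and in the FLX mice. The part of these cells in the levels of the chains was not tested.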

How the data were processed

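RNA of 18 right kidneys (6 mice per group) was sequenced by the authors from stranded poly(A) libraries. The paper names fastp, HISAT-3N, GRCm38 and StringTie, while the submitters' processing notes list cutadapt 1.9, HISAT2 2.0.4, StringTie 1.3.4d, UMI-tools, DESeq2 and edgeR. The deposited table gives FPKM and whole-number counts per gene and mouse. More genes per mouse had a count of 4 (median 720) than of 3 (484.5) or 5 (268), so the deposited counts were treated as estimated counts. The sources used here do not give the counting tool.

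Counts were fitted with edgeR 4.0.16 (R 4.3.3; filterByExpr, TMM scaling, quasi-likelihood test) over the 3 groups without PBS replicate 6, and FPKM was used for levels. Named genes were the called members, the 5 smallest p values per comparison, the 10 highest Ctrl levels and the type IV genes. Of other lists, called genes were named, or the 2 smallest p values where none was called, except 1 gene that is not reported here. Members, lists and tests were chosen with earlier results of these data known, and chain ratios and further genes named as partners of these or for standing apart in 1 mouse (Col1a1, Col1a2, Col5a1, Col6a3, Col6a4, Col6a5, Col8a1) after values were seen.

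Alternatives were all 6 PBS mice, DESeq2 1.42.0, upper-quartile scaling, no filter, limma 3.58.1 on log2(FPKM + 0.1), + 1 and + 0.01 with a mean of at least 0.1 FPKM, the first also without that filter, pairwise fits, a replicate block, each mouse left out, and, added after seeing the data, FLX replicates 1 and 2 only. Counts were simulated with 200 genes changed in the PBS mice, and only PBS versus Ctrl was scored. In that comparison edgeR recovered 178 with 6 false calls (3.26% of its calls) and limma 177 with 8 (4.32%). DESeq2 recovered 186 with 27 false calls (12.7%, above the 5% its threshold allows). DESeq2's larger counts are therefore to be read with care, and its false calls in the comparisons with FLX mice were not measured. The changed genes of the simulation were well counted and changed by larger factors than most chains here. Their counts were drawn with dispersions estimated by edgeR. The recovery therefore does not carry over to small changes or low counts, and the tools were compared in that setting only.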

Additional observations from a re-analysis of the deposited data

Results flagged for a closer look

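Among 18 named chains in the 3 groups of 6 mice, 54 groups in all, 11 values stood apart from the rest of their group by Dixon's criterion. Chance gives this in about 1 of 20 independent groups. That share cannot be set against the 11 values, since Col8a1 was named after values were seen and chains of 1 mouse are not independent. They came from 5 mice, and PBS replicate 6 accounted for 7 of them. It was highest for Col13a1 (5.31 FPKM, others 0.0748 to 0.222), Col8a1 (4.61 FPKM, others 0.312 to 0.639), Col4a1 (81.6 FPKM, others 18.1 to 25.6), Col4a2 (59.7 FPKM, others 12.9 to 16.996), Col18a1 (43.8 FPKM, others 18.7 to 21.9) and Col6a1 (9.58 FPKM, others 5.14 to 6.42). It was lowest for Col4a3 (11.95 FPKM, others 16.6 to 18.6).

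The other 4 were 1 value each in 4 mice. Col4a6 was at 0.732 FPKM in Ctrl replicate 4 (others 0.0444 to 0.242) and at 0.936 FPKM in PBS replicate 5 (others 0.127 to 0.188). Col6a6 was at 0.645 FPKM in Ctrl replicate 3 (others 0.201 to 0.298), and without this mouse it was still called in PBS versus Ctrl. Col8a1 was at 0.782 FPKM in FLX replicate 4 (others 0.276 to 0.445).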

How the results depend on the processing

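In PBS versus Ctrl, 5 members (3.81% of all genes) were called, and 3 (Col6a1, Col6a2 and Col6a6) under limma without a filter (1.73%) and under the replicate block (2.07%), 4 without the filter in edgeR (1.69%), and 6 with DESeq2 (7.03%). Leaving out 1 mouse gave 3 to 6 calls (1.88% to 8.27%). In FLX versus PBS, 0 (0.726%) became 2 with DESeq2 (2.46%) and stayed 0 without any 1 mouse. DESeq2 made too many false calls on simulated data, but only PBS versus Ctrl was scored there. In FLX versus Ctrl, 2 (3.67%) became 1 with all 6 PBS mice (1.77%), without the filter (1.18%), in the pairwise fit (3.75%) and under the replicate block (1.27%), 5 under each filtered limma fit (6.37% to 6.6%), 7 with DESeq2 (8.12%) and 0 with FLX replicates 1 and 2 only (0.0183%), and leaving out 1 mouse gave 1 to 7 calls (1.35% to 15.4%, the latter without Ctrl replicate 3). The cause of these shifts was not tested. The log2 fold change of Col13a1 in FLX versus PBS reversed to -1.70 with all 6 PBS mice. Col19a1 had no value in the filtered limma fits, where its mean FPKM was too low. DESeq2 gave no adjusted p for Col19a1 and Mmp3 in FLX versus Ctrl. Same-numbered mice of different groups share only a number in the labels, and since their deviations did not go together in each pair, the block was not used as the main fit. The lower totals of FLX replicates 3 to 6 limit the precision of chains with few counts.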
